A study of Mus musculus with 25 samples.

Results

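Zygotes at pronuclear stage 3 (PN3) made from eggs without maternal Smarca4 were compared with wild-type zygotes of the same stage. The comparison uses 8 of the 25 RNA-seq libraries of the series, chosen by their titles: 4 labelled Smarca4 knockout (KO) and 4 labelled wild type (WT). The other 17 libraries are from MII oocytes (3 WT, 2 KO), early 2-cell embryos (E2C, 3 and 3) and late 2-cell embryos (L2C, 3 and 3), and serve here only to show the PN3 genes at other stages. Per the labels' protocols, MII oocytes for sperm injection were taken from females aged 8 to 12 weeks that were either B6D2F1 hybrids or C57BL/6 mice with both Smarca4 alleles floxed and a Gdf9 Cre transgene, superovulated with 7 IU of PMSG and 48 h later 5 IU of hCG. Gdf9 Cre is active in oocytes, so the deletion is maternal, and the paternal Smarca4 allele of the zygotes is not described in these sources. Which strain gave the eggs of which library is not stated either, so strain and genotype cannot be told apart. The number of zygotes in a library, and whether replicates came from separate females, are not given, and so the p-values cover the spread among these libraries alone, part of which may be technical. In bulk samples, fewer transcribing cells and less RNA per cell cannot be told apart.

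Smarca4 (also called Brg1) is the ATPase that drives the BAF complex, a remodeler that moves or evicts nucleosomes and opens promoters and enhancers. At PN3 the parental genomes lie in separate pronuclei, the sperm chromatin has exchanged protamines for maternal histones, and most of the RNA in the cell was made by the growing oocyte. The embryo's own transcription begins weakly at this stage, in what is called minor genome activation. RNA stored in the egg, its clearance and transcription in the zygote cannot be told apart in bulk RNA levels of a single stage.

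Expression is given as scaled FPKM (fragments per kilobase of transcript, scaled to the fragments of the library, rescaled between libraries), and differences as KO minus WT on the log2(scaled FPKM + 1) scale, which understates the change of low genes. The depth of the libraries is unknown, and FPKM is relative, so it would not show whether the zygotes held more or less RNA overall. The sum of deposited FPKM was 238718 ± 3801 (SD, n = 4) in WT and 236703 ± 2799 in KO (exact permutation test, two-sided, p = 0.4). Genes above 0 numbered 16116 ± 735 and 15579 ± 513 (exact permutation test, two-sided, p = 0.286; the smallest p this design allows is 0.0286). Btg4, an adaptor of mRNA deadenylation found in eggs and zygotes, was high in all libraries, at 954 to 1199 in WT and 989 to 1179 in KO. Of 27 cumulus and granulosa markers 2 were measured, of 27 sperm and testis markers 3 and of 26 blood and immune markers 2, and none of these 7 was called. The summed level was 7.43 to 8.93 (WT) and 6.18 to 8.16 (KO) for cumulus and granulosa genes, 79.4 to 94.9 and 84.3 to 96.7 for sperm and testis genes, and 8.02 to 11.0 and 7.02 to 10.8 for blood and immune genes. Listed at 0 in all 8 libraries were 4 of the 27 cumulus and granulosa markers, Inha among them. The same held for 4 of the 27 sperm and testis markers, with Tnp1, and 11 of the 26 blood and immune markers, with Ptprc. The other markers were above 0 in at least 1 library.

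The libraries did not differ by genotype alone. On the first principal component (36.1% of the variance), replicates 1 and 2 lay below replicates 3 and 4 in both genotypes, and within each such pair of replicates the KO libraries lay above the WT libraries. The labels do not say what replicates 1 and 2 or 3 and 4 share. For this reason differences within each pair of replicates (2 libraries against 2) are given below for some of the named genes, and a term for the split, added after seeing the data, is given where it changes a call.

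**Figure D1:**
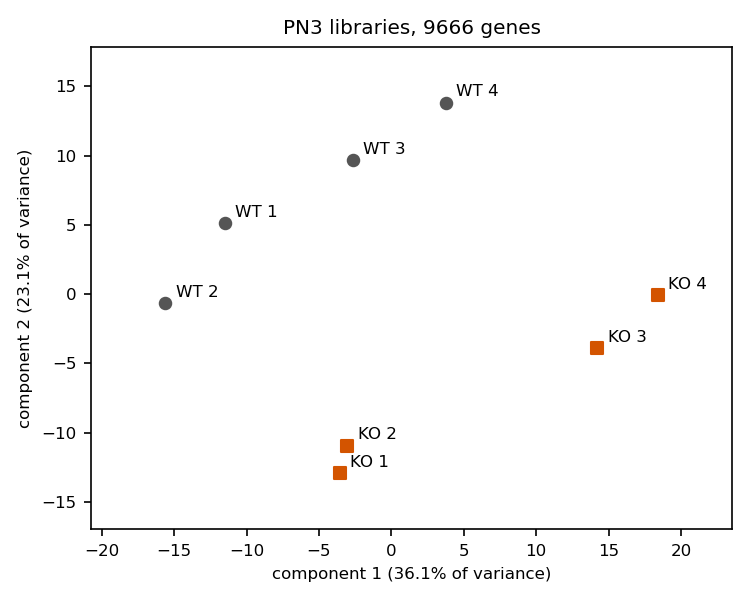
Principal components of the 8 PN3 libraries over 9666 genes; each point is 1 library, circles are WT and squares KO, numbered by replicate, with the share of variance on the axes. Replicates 3 and 4 lie to the right of replicates 1 and 2 in both genotypes, and the KO libraries lie below the WT libraries of the same replicate pair on the second component.

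Smarca4 (chromosome 9, 21616106 to 21704230, GRCm38, plus strand) separated the labels in every library. Its scaled FPKM was 31.8, 32.9, 32.9 and 35.5 in WT replicates 1 to 4 and 0.354, 0.479, 0.275 and 0.236 in KO. The lowest WT value was far above the highest KO value, and the log2 difference was -4.68 ± 0.08 (SE), with a limma adjusted p of 2.79e-10. Smarca2, the alternative ATPase of the complex, stood at 62.3 ± 7.12 (SD, n = 4) in WT and 58.3 ± 9.80 in KO and was not called (-0.10, adjusted p = 0.730). Of 32 other listed subunits, Smarca2 included, 24 were tested and 0 were called in the limma fit. That fit called 117 of all 9666 genes (1.21%), so 0 among 24 does not set the subunits apart. An unadjusted p under 0.05 was more common, in 1626 of the 9666 genes. The differences of the 24 subunits ran from -0.24 (Dpf3) to 0.19 (Smarcb1), with a median of -0.00, as over all genes (0.00). Arid1a, the DNA-binding subunit of the canonical complex, was 125 to 128 in WT and 109.9 to 122 in KO, with no overlap between the groups but an adjusted p of 0.217.

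A gene was tested if its FPKM reached 1 in 3 or more of the 8 libraries. Among the 9666 that did, 117 were called at an adjusted p under 0.05 (limma, Benjamini-Hochberg), which is 1.21% of those tested. Of these, 61 were higher in KO (0.631%) and 56 lower (0.579%), Smarca4 included. The changes were mostly modest: 12 of the higher and 19 of the lower genes differed by more than 2-fold in their means, and the median difference was 0.56 among the higher and -0.56 among the lower genes. KO and WT libraries did not overlap for any called gene; over all genes tested this held for 5.56% with KO higher and 5.69% with KO lower. The filter on low values was passed only through the KO libraries by 5 of the higher genes, and only through the WT libraries by 6 of the lower genes, so those genes had to differ to be tested. Just inside the filter, 156 genes reached an FPKM of 1 in exactly 3 libraries, 1 of which was called, and 219 reached it in exactly 2 and were not tested. The count of 117 became 63, 70, 25 and 49 without WT replicates 1 to 4 in turn, and 72, 56, 38 and 43 without KO replicates 1 to 4. In all 24 genes, 10 higher and 14 lower with Smarca4 (0.248% of those tested), were called in the fit and in all 8 such fits.

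**Figure D2:**
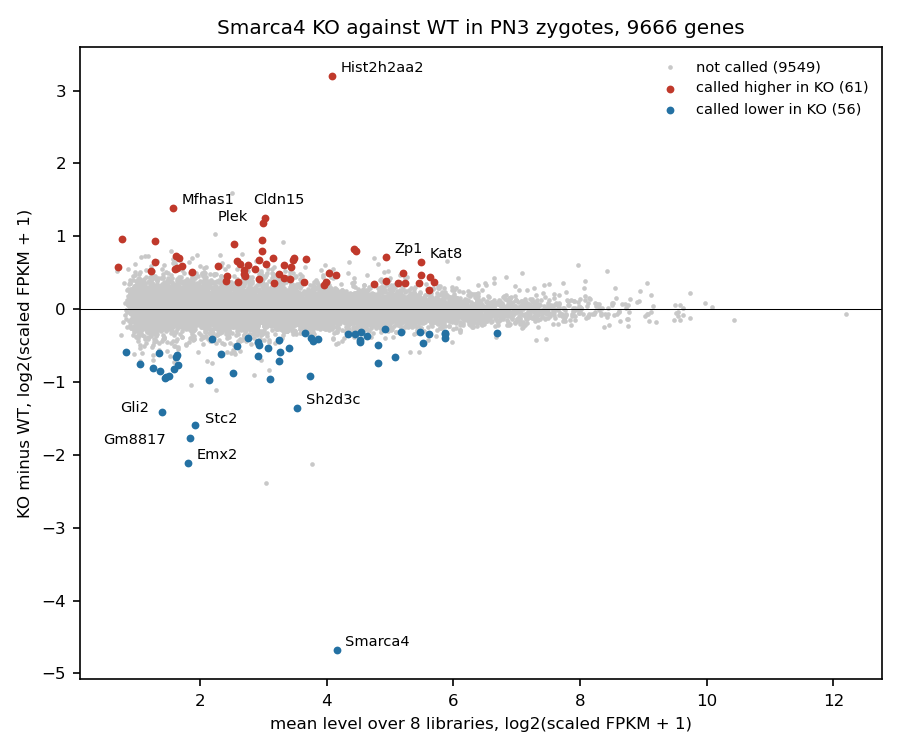
Difference between KO and WT (vertical, log2) against the mean level (horizontal, log2(scaled FPKM + 1)) for the 9666 genes tested, with genes called higher in red (61), called lower in blue (56) and all others in grey. Smarca4 lies lowest at -4.68, followed among called genes by Emx2 at -2.11, and Hist2h2aa2 lies highest at 3.20.

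The largest losses besides Smarca4 included Emx2 and Gli2, both transcription factor genes. Emx2 (chromosome 19, 59458690 to 59465357, plus strand), a homeobox factor of forebrain and urogenital development, was 5.54, 4.28, 3.86 and 5.17 in the WT libraries and 0.205, 0.258, 0.459 and 0.346 in KO. Every KO library was below 0.5 while every WT library was above 3.8, a 14.9-fold difference of the means (-2.11 ± 0.12 (SE), limma adjusted p = 1.74e-05). Emx2 overlaps Emx2os on the other strand, and whether strand was used in making the FPKM values is not stated in the sources used here. Gli2 (chromosome 1, 118834061 to 119054405, minus strand), a zinc-finger effector of Hedgehog signalling, was 2.19, 2.47, 3.25 and 3.41 in WT against 0.492, 0.506, 0.398 and 0.337 in KO (-1.41 ± 0.12 (SE), adjusted p = 5.08e-04). No KO library of Gli2 came near the lowest WT library.
Barx2, another homeobox factor, was 4.28 to 5.52 in WT and 1.51 to 2.76 in KO (-0.98, adjusted p = 0.0106). Insm1, a zinc-finger factor of neuroendocrine differentiation, was 15.8, 13.7, 16.5 and 19.4 in WT against 6.85, 7.54, 8.34 and 10.2 in KO (-0.91, adjusted p = 0.00969). Its values were higher in replicates 3 and 4 of the KO group, and the difference was -0.94 in replicates 1 and 2 and -0.89 in replicates 3 and 4. Gata4 (-0.59, adjusted p = 0.0320) and Glis1 (-0.53, adjusted p = 0.0324), also transcription factors, were called lower too and are named here after their values were seen; each was called in only 2 of the 8 fits without 1 library. Emx2, Gli2 and Insm1 were called in all 8 of those fits, and Barx2 in 7. Emx2 and Gli2 passed the filter only through the WT libraries, so they had to differ to be tested.

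Promoter windows are shown for 3 of the genes with the largest differences, to set their CpG content side by side. The 250 bases before the start that RefSeq (GRCm38.p6) lists are printed 5′ to 3′ on the gene's strand, with each CpG in capitals, for Emx2 (chr19:59458440-59458689, plus strand), for Stc2 (chr11:31370062-31370311, minus strand), both lower in KO, and for Plek (chr11:17008719-17008968, minus strand), higher in KO.
Emx2: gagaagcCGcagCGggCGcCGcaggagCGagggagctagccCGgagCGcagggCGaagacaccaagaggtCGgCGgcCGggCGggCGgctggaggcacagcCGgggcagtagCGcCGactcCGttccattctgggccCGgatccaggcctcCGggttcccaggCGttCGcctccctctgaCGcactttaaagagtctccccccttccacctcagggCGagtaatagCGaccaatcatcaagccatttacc
Stc2: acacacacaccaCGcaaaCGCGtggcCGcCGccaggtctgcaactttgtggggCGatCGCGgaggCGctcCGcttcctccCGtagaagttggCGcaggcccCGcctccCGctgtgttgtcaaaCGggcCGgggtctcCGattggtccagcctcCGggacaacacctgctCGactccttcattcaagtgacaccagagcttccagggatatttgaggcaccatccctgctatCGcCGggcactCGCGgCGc
Plek: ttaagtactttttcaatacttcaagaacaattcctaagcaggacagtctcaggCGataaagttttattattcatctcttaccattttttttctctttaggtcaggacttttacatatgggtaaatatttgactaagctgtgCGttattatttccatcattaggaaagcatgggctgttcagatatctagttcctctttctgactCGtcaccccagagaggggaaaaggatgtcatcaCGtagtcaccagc
The 50 bases after the listed start lie in a GENCODE vM21 transcript for Emx2 and Stc2 but in none for Plek, so the Plek start has no such support. The Emx2 and Stc2 windows hold 24 CpG each and the Plek window 4, where the median over the 7746 tested genes with a window (80.1% of those tested) is 16 (quartiles 10 and 23). Other genes with large differences were mixed. Against the median of 16, Gm8817 (0 CpG), Defb41 (0), Sec14l3 (4), Fxyd6 (5), Sh2d3c (9) and Tuba3b (14), lower in KO, did not follow this contrast. Hist2h2aa2 (29), Aldh1a2 (40), Arl2 (20) and Phldb3 (18), higher, did not either. Gli2 (22), Wwc1 (22), Rhob (24) and Dip2c (24), lower, did. Cldn15 (7), 1700030O20Rik (7), Raet1d (9), Frmd3 (12) and Zdhhc24 (14), higher, did too. The 45 lower genes with a window (81.8% of 55, Smarca4 left out) had a median of 15 CpG. Of the 61 higher genes only 72.1% had a window, so no comparison is made for them. The motif TATAAA, on either strand, was in 8.89% of the windows of the lower genes (4 of 45, Gm8817 among them) and in 6.45% of those of all tested genes.

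Stc2, Sh2d3c and Wwc1, which are not transcription factor genes, were also lower in KO. Stc2 (chromosome 11, 31359441 to 31370061, minus strand), which encodes the secreted glycoprotein stanniocalcin, was 4.98, 4.70, 4.94 and 4.00 in WT against 1.05, 1.13, 0.835 and 0.540 in KO. The groups were well apart, with a 5.23-fold difference of the means (-1.59 ± 0.12 (SE), adjusted p = 1.66e-04). Sh2d3c, an SH2-domain signalling adaptor on chromosome 2, was 14.96, 11.5, 18.1 and 18.3 in WT against 4.93, 5.10, 5.46 and 6.18 in KO (-1.36 ± 0.14 (SE), adjusted p = 0.00143). Wwc1 (Kibra), an upstream activator of the Hippo kinases, was 9.38, 10.3, 10.4 and 11.3 in WT against 4.91, 6.15, 4.01 and 4.47 in KO (-0.96 ± 0.11 (SE), adjusted p = 0.00318). It was the 1 called gene among 22 tested members of the Hippo pathway list. Its relative Wwc2 was 162 to 164 in WT and 151 to 154 in KO, apart but by only -0.10 (adjusted p = 0.268), and the coactivator Yap1 differed by -0.05 (adjusted p = 0.646). Rhob, a small GTPase that acts on actin and endosomes, was 2.10 to 3.06 in WT and 0.568 to 1.10 in KO (-0.94, adjusted p = 0.00586). Dip2c, which spans chromosome 13, 9276507 to 9668928, was 5.79, 7.14, 6.55 and 6.27 in WT against 3.20, 2.79, 3.31 and 2.89 in KO (-0.88 ± 0.08 (SE), adjusted p = 0.00130).

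Several of the lower genes were weakly expressed in both groups, and their calls depended more on single libraries. Sec14l3, of a lipid-transfer family, was 1.92 to 3.34 in WT and 0.545 to 1.14 in KO (-0.94, adjusted p = 0.0151). Tuba3b, an alpha-tubulin whose near-identical copy Tuba3a can share its reads, was 1.92 to 3.89 and 0.823 to 1.04 (-0.92, adjusted p = 0.0160). The defensin gene Defb41 (-0.85, adjusted p = 0.0324) and Fxyd6 (-0.82, adjusted p = 0.0370), which encodes a regulator of the sodium pump, were called with all libraries, but in only 3 and 0 of the 8 fits without 1 library. Gm8817, an X-linked lncRNA gene (chromosome X, 167063231 to 167070370), was 3.43, 3.58, 4.74 and 6.25 in WT against 0.949, 1.54, 0.256 and 0 in KO, where replicate 4 was listed at 0. Its difference of -1.77 ± 0.27 (SE) had an adjusted p of 0.0160 and was -1.02 in replicates 1 and 2 and -2.52 in replicates 3 and 4. Of the 8 fits without 1 library, Sec14l3 and Gm8817 were called in 6 and Tuba3b in 5.

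A further set of lower genes differed less in size but was called in all 8 fits without 1 library. Coro2b, an actin-binding coronin, was 37.0, 38.8, 42.3 and 43.6 in WT against 25.5, 24.5, 24.6 and 26.8 in KO (-0.65 ± 0.07 (SE), adjusted p = 0.00169). The spread within each group was small beside the gap. Map1b, a microtubule-associated protein, was 50.8 to 53.7 and 34.4 to 40.4 (-0.47, adjusted p = 0.00728). Usp11, an X-linked deubiquitinase, was 9.32 to 12.0 and 5.15 to 6.77 (-0.72, adjusted p = 0.0139). Fam83d, a protein of the mitotic spindle, was 2.59 to 3.43 and 1.20 to 1.41 (-0.76, adjusted p = 0.00399), and Pde9a, a phosphodiesterase for cyclic GMP, 1.74 to 2.43 and 0.517 to 0.935 (-0.81, adjusted p = 0.00949). Pde9a passed the filter only through the WT libraries, as did Emx2, Gli2 and Smarca4.

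**Figure D3:**
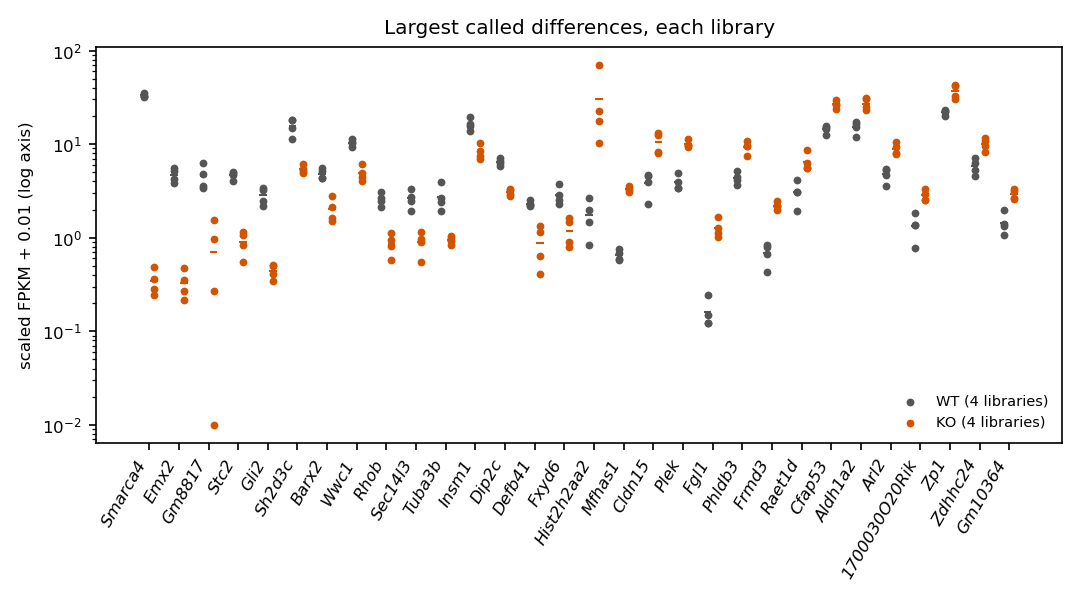
Scaled FPKM + 0.01 (log axis) of Smarca4 and the genes with the largest called differences in either direction; each dot is 1 PN3 library (4 WT in grey, 4 KO in orange) and the short bar is the group mean. The WT and KO dots do not overlap for any gene shown, Gm8817 in KO replicate 4 is listed at 0, and Hist2h2aa2 spreads from 10.2 to 70.04 in KO.

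The higher genes were led by a histone gene and by genes that were low in WT zygotes. Mfhas1 (chromosome 8, 35587789 to 35679449, plus strand), a leucine-rich repeat protein, was 0.676, 0.755, 0.589 and 0.573 in WT against 3.57, 3.25, 3.36 and 3.09 in KO. All 4 KO libraries lay within 3.09 to 3.57, and the means differed 5.12-fold (1.39 ± 0.08 (SE), adjusted p = 2.97e-05). Fgl1, a secreted fibrinogen-like protein, was 0.140, 0.113, 0.113 and 0.232 in WT against 1.01, 1.27, 1.11 and 1.65 in KO (0.97 ± 0.11 (SE), adjusted p = 0.00280). Frmd3, a FERM-domain protein of the cell cortex, was 0.422 to 0.825 in WT and 1.98 to 2.45 in KO (0.93, adjusted p = 0.00280). These 3 genes passed the filter only through the KO libraries. The histone H2A gene Hist2h2aa2 (listed by RefSeq as H2ac19) was 0.821, 2.67, 1.47 and 1.94 in WT against 10.2, 17.8, 70.04 and 22.3 in KO. KO replicate 3 stood far above the other 3 (3.20 ± 0.46 (SE), adjusted p = 0.0137), and without it the difference was 2.69. Hist2h2aa2 was called in 5 of the 8 fits without 1 library. Reads can be shared with the near-identical copy Hist2h2aa1, which differed by 0.44 (adjusted p = 0.704), so the value is uncertain.

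Genes with clear WT expression also rose. Plek (chromosome 11, 16971206 to 17008718, minus strand), encoding pleckstrin, a protein kinase C substrate best known from platelets, was 3.95, 4.93, 3.40 and 3.37 in WT against 9.85, 9.42, 11.3 and 9.71 in KO (1.18 ± 0.11 (SE), adjusted p = 8.91e-04). Its groups were apart in both replicate pairs, at 0.97 in replicates 1 and 2 and 1.39 in replicates 3 and 4. Cldn15, a tight-junction claudin, was 2.26 to 4.62 in WT and 8.05 to 13.2 in KO (1.25, adjusted p = 0.0218), with the higher KO values in replicates 3 and 4, and was called in 4 of the 8 fits without 1 library. Phldb3, a pleckstrin-homology domain protein, was 5.18, 3.63, 4.12 and 4.44 and 7.54, 9.43, 9.55 and 10.8 (0.95, adjusted p = 0.00499). Cfap53, a protein of cilia and flagella, was 12.5 to 15.8 and 23.5 to 29.7 (0.83, adjusted p = 0.00236). The small GTPase Arl2, which takes part in tubulin folding, was 3.57 to 5.37 and 7.76 to 10.6 (0.80, adjusted p = 0.0161).

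Aldh1a2, the dehydrogenase that makes retinoic acid, was 17.2, 16.2, 15.2 and 11.9 in WT against 30.2, 30.8, 24.7 and 22.9 in KO. The lowest KO library was above the highest WT library (0.80 ± 0.12 (SE), adjusted p = 0.0160). It was the 1 called member of 9 tested retinoic acid genes; the receptor genes Rara (-0.03, adjusted p = 0.915) and Rxra (-0.03, adjusted p = 0.917) were not called. Kat8, the acetyltransferase of histone H4 in the MSL and NSL complexes, was 32.3, 31.1, 36.1 and 36.7 in WT against 50.4, 51.2, 53.5 and 59.8 in KO (0.64 ± 0.08 (SE), adjusted p = 0.00396), and was called in all 8 fits without 1 library. Kat8 overlaps Prss8 on the other strand. Zp1, a zona pellucida glycoprotein stored from the oocyte, was 22.7, 19.9, 22.2 and 22.9 in WT against 30.7, 32.7, 42.97 and 41.9 in KO (0.72 ± 0.11 (SE), adjusted p = 0.0160). The KO values of Zp1 were higher in replicates 3 and 4, and the difference was 0.55 in replicates 1 and 2 and 0.88 in replicates 3 and 4.

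Other genes named by rule rose as well. Raet1d, a ligand of an activating receptor of natural killer cells (0.90, adjusted p = 0.0439), Zdhhc24, of the palmitoyltransferase family (0.70, adjusted p = 0.0366), the noncoding RNA 1700030O20Rik (0.73, adjusted p = 0.0370) and the transcribed pseudogene Gm10364 (0.70, adjusted p = 0.0293) were called in only 1 or 2 of the 8 fits without 1 library. By contrast the chemokine receptor gene Cxcr3 was called in all 8; it was 4.74, 4.77, 4.74 and 5.06 in WT against 8.57, 8.45, 8.93 and 7.45 in KO (0.68 ± 0.07 (SE), adjusted p = 0.00257). Lrrc17, a secreted leucine-rich repeat protein (40.1 to 42.5 in WT and 52.6 to 59.4 in KO, 0.44, adjusted p = 0.00969), and Pofut2, an O-fucosyltransferase of the secretory pathway (24.7 to 26.2 and 32.8 to 34.7, 0.38, adjusted p = 0.00969), were also called in all 8. Lrrc17 and Pofut2 thus show small differences with little spread within each group.

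The gene lists for chromatin, activation and maternal RNA contained few called genes. Of 31 lists, 7 held 1 called member each and the others 0, in the limma fit that called 1.21% of all genes. The called members were Kat8 among 40 tested histone-modifying enzymes (median difference -0.04), Zp1 among 55 oocyte and maternal effect genes (0.02), Hist2h2aa2 among 53 replication-dependent histones (-0.10), Eif3l among 46 translation initiation factors (-0.01), Taf9b among 94 genes of the RNA polymerase II machinery (-0.02), Wwc1 among 22 Hippo genes (-0.00) and Aldh1a2 among 9 retinoic acid genes (-0.03), beside a median of 0.00 over all genes tested. Eif3l, a subunit of the initiation factor eIF3, was 4.28 to 5.38 in WT and 7.05 to 8.45 in KO (0.55, adjusted p = 0.0161, called in 5 of the 8 fits without 1 library). Taf9b, a TFIID subunit encoded on the X chromosome, was 35.1, 39.0, 32.4 and 29.2 in WT against 24.4, 23.1, 17.6 and 15.4 in KO (-0.74, adjusted p = 0.0375) and was called in only 1 of the 8 fits without 1 library. Nuclear-encoded genes of oxidative phosphorylation had the highest list median, 0.11 over 75 genes with 0 called, and it ranged from 0.05 to 0.16 when single libraries were left out. The histone list moved between -0.24 (without KO replicate 4) and 0.03 (without WT replicate 4), so its sign rests on single libraries. No member was called among 36 other remodelers (median -0.01), 25 genes of paternal chromatin handling (-0.04), 17 of DNA methylation and reprogramming (-0.08), 18 zygotic activation factors (-0.03), 42 of mRNA storage and clearance (-0.02) or 47 of DNA replication (-0.05).

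**Figure D4:**
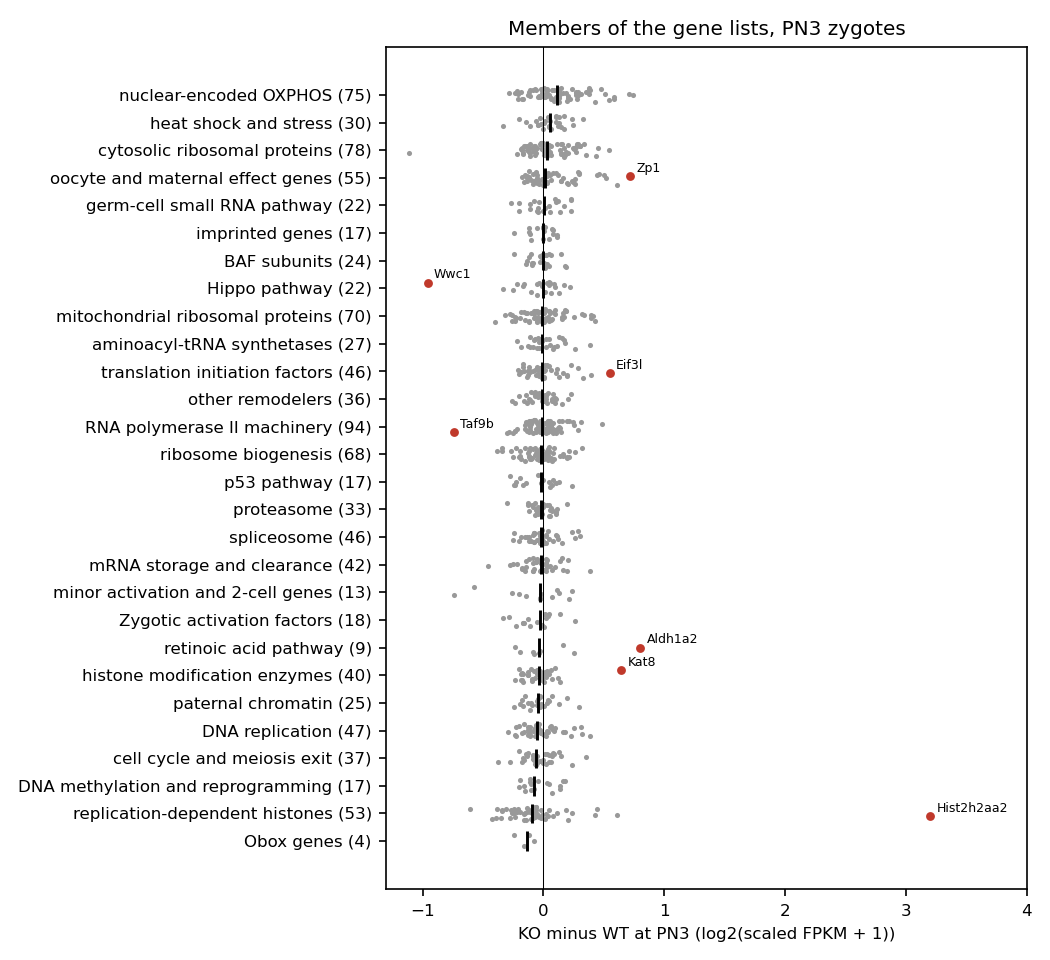
Difference between KO and WT at PN3 (log2) of every tested member of each gene list with at least 4 tested members; each dot is a gene, red dots with names are called genes, the vertical bar is the list median and the number in brackets the members tested. List medians lie between -0.14 (Obox genes) and 0.11 (oxidative phosphorylation), and the 7 red dots are single genes of 7 lists.

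Genes that mark the start of embryonic transcription were not called at PN3 in the fit on genotype alone. Dux was called once the split of the replicates was a term, as was the maternal gene Obox1. That term called 925 of the 9666 genes tested, against 117 on genotype alone. Dux, the factor that precedes the 2-cell programme, was 6.31, 5.56, 3.27 and 3.48 in WT against 3.12, 3.37, 1.64 and 1.47 in KO (-0.74 ± 0.23 (SE), adjusted p = 0.143). Its groups overlapped, while replicates 1 and 2 were higher than 3 and 4 in both genotypes. Within each replicate pair every WT library was above every KO library, and the differences were -0.71 in replicates 1 and 2 and -0.77 in replicates 3 and 4. With the split between replicates 1 and 2 and replicates 3 and 4 as a term, the limma adjusted p was 5.88e-04 for Dux and 0.0330 for Obox1, and 0.126 for Zscan4d. Dux is carried in repeated copies, so reads may be shared among them. Zscan4d, of the 2-cell gene family it activates, was 1.66 to 2.06 in WT and 1.18 to 1.64 in KO (-0.26, adjusted p = 0.223). Of 13 tested minor activation and 2-cell genes 0 were called on genotype alone, with a median of -0.03; Usp17lc (-0.58, adjusted p = 0.197), named after its values were seen, had the same order of libraries as Dux within the replicate pairs. The maternal homeobox genes Obox1 (341 to 384 in WT and 275 to 326 in KO, -0.25, adjusted p = 0.111), Obox5 (-0.12, adjusted p = 0.516) and Obox7 (-0.08, adjusted p = 0.668) were not called on genotype alone, and Obox3 did not pass the filter. In MII oocytes fitted alone, Obox1 was already called lower in KO (-0.24, limma adjusted p = 0.0492). Nr5a2, an orphan receptor of zygotic activation, was 11.1 to 16.2 in WT and 11.0 to 12.5 in KO (-0.13, adjusted p = 0.596).

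Factors that act on the parental genomes at this stage were not called on genotype alone. With the split of the replicates as a term, which called 925 of the 9666 genes tested, 2 of them were called, Tet3 and H3f3a. The oxidase of methylated cytosine Tet3 was 219 to 237 in WT and 192 to 218 in KO (-0.16, adjusted p = 0.197); the groups did not overlap. The histone gene H3f3a, which supplies the variant loaded onto sperm chromatin, was 189, 189, 154 and 166 in WT against 149.6, 152, 148 and 137 in KO (-0.24, adjusted p = 0.140). Its chaperone gene Hira (0.04, adjusted p = 0.844), the maintenance methyltransferase Dnmt1 (0.07, adjusted p = 0.742) and its regulator Dppa3 (-0.08, adjusted p = 0.771) were not called, with SE of 0.07, 0.08 and 0.11. Among stored oocyte RNAs, Btg4 differed by 0.03 (adjusted p = 0.908), Zp3 by 0.26 (adjusted p = 0.178) and the growth factor Gdf9 by 0.52 (adjusted p = 0.205). Gdf9 was 240.2, 225, 328 and 326 in WT against 315, 311, 509 and 494 in KO, with both KO libraries of each replicate pair above both WT libraries (0.43 and 0.61). None of these genes was called on genotype alone. With the split as a term, Tet3 (0.0206), H3f3a (0.0136), Zp3 (0.0126) and Gdf9 (1.93e-04) had limma adjusted p under 0.05, lower in KO for the first pair and higher for the second.

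Lists defined on the MII and 2-cell libraries, without PN3, placed the PN3 differences along the passage from egg to embryo. Of 646 genes higher at E2C than at MII by at least 1 (log2), 401 were tested at PN3. Of those, 1 was called higher (Hist2h2aa2) and 1 lower (Tex19.1, -0.36), with a median of -0.03. Of 655 genes whose L2C level was at least 2 (log2) below that at MII, 654 were tested. Of these maternally cleared genes 15 were called higher (2.29%) and 3 lower (0.459%), beside 0.631% and 0.579% of all genes tested, and their median was 0.05 (0.02 to 0.06 without single libraries). Both genotypes entered the choice of these lists. Among the 15 were Aldh1a2, Arl2, Kat8, Zp1 and Zdhhc24, given above, and Mnd1, a factor of meiotic recombination (11.7 to 14.1 in WT and 15.2 to 20.4 in KO, 0.49, adjusted p = 0.0441), named after its value was seen.

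The genes called at PN3 were then read in the oocytes before fertilisation, whose libraries the PN3 fit did not use. MII oocytes fitted alone gave 906 called genes of 9631 (9.41%), 396 higher (4.11%) and 510 lower (5.30%). The median within-group SD was 0.07 (WT) and 0.08 (KO) at MII, against 0.13 in both groups at PN3. Counts of calls at the 2 stages therefore do not compare the size of the effect. The filter asks for 3 libraries and KO oocytes have 2, so a gene that reached it only in KO oocytes was not tested at MII. A gene that reached it only in WT oocytes could be. Untested for this reason were Mfhas1 (oocytes 0.423 to 0.528 in WT, 2.26 and 2.12 in KO) and others, while Frmd3 was low in both groups. Of the 61 genes higher at PN3, 56 were measured at MII: 44 had the same sign, where 49.5% of all genes were above 0 at MII, 17 were called higher there too and 2 were called lower. Of the 55 lower genes besides Smarca4, 54 were measured: 47 had the same sign, where 50.5% of all genes were below 0, 23 were called lower there too and 1 was called higher. Emx2 (-1.14 at MII, adjusted p = 0.0142), Stc2 (-1.06, adjusted p = 0.0441), Wwc1 (-1.14, adjusted p = 0.00109), Dip2c (-0.83, adjusted p = 7.50e-04), Sh2d3c (-0.62, adjusted p = 0.00744) and Gm8817 (-1.71, adjusted p = 3.31e-04) were lower in the egg already. Aldh1a2 (0.71, adjusted p = 7.50e-04), Cfap53 (0.49, adjusted p = 0.00353), Phldb3 (0.87, adjusted p = 0.00637) and Cldn15 (0.80, adjusted p = 0.00337) were higher in it. Kat8 (0.05, adjusted p = 0.625), Zp1 (0.14, adjusted p = 0.110) and Eif3l (-0.05, adjusted p = 0.723) were not called at MII, where the KO group has 2 libraries. Called the other way at MII were Ppia (-0.40), Slc25a13 (-0.36) and Cbfa2t3 (0.52), of which Ppia and Slc25a13 are named after their values were seen.

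**Figure D5:**
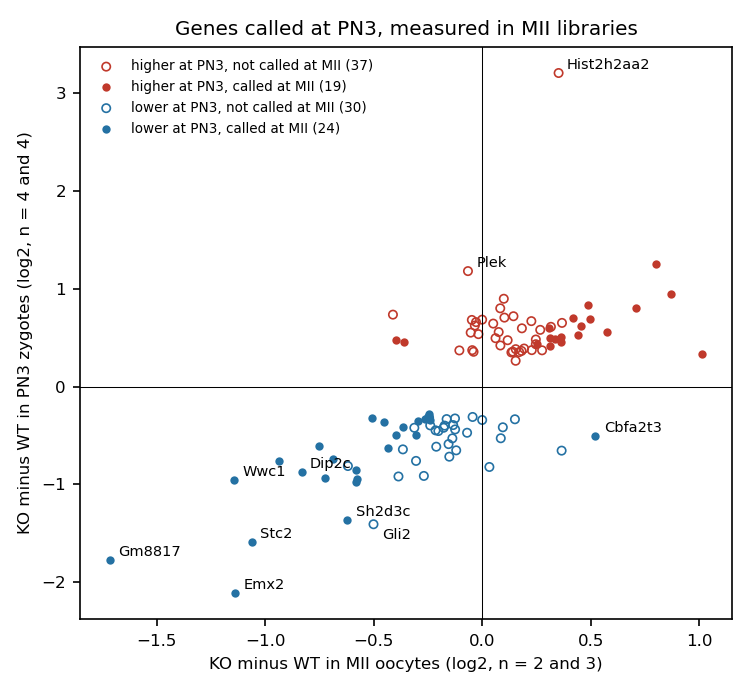
Difference between KO and WT in PN3 zygotes (vertical) against that in MII oocytes (horizontal), both log2(scaled FPKM + 1), for the genes called at PN3 and measured at MII, without Smarca4; red is higher and blue lower at PN3, and filled points were called at MII. Most blue points lie to the left of 0 (47 of 54) and most red points to the right (44 of 56), with Plek near 0 and Cbfa2t3 on the other side.

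Levels across the 4 stages, on a scale common to all 25 libraries, showed several courses. Smarca4 in KO was 0.315 ± 0.0997 (SD, n = 4) at PN3, 2.57 ± 2.27 (n = 3) at E2C and 21.96 ± 0.807 (n = 3) at L2C. In WT it was 28.4 ± 8.37 (n = 3) at E2C and 70.99 ± 21.1 (n = 3) at L2C. The KO libraries at L2C thus held Smarca4 RNA, at a lower level than WT, and its source was not tested. Emx2 in WT was 1.61 ± 0.561 (SD, n = 3) at MII, 4.39 ± 0.719 (n = 4) at PN3 and 0.469 ± 0.812 (n = 3) at E2C, and its lowest WT library at PN3 was above the highest of the other stages. In KO it was 0.215 ± 0.258 (n = 2), 0.297 ± 0.105 (n = 4) and 0.0447 ± 0.0774 (n = 3). Mfhas1 in KO was 2.19 ± 0.103, 3.11 ± 0.182, 2.64 ± 0.567 and 1.03 ± 0.188 from MII to L2C, against 0.477 ± 0.0529, 0.605 ± 0.0781, 0.357 ± 0.0760 and 0.574 ± 0.611 in WT. Its KO libraries were above the WT libraries at the first 3 stages and overlapped them at L2C. Aldh1a2 fell towards L2C in both genotypes and was higher in KO throughout, for example at L2C with 0.208 to 1.22 in WT against 1.97 to 3.59 in KO. Kat8 was 74.4 ± 3.69 in WT and 77.0 ± 2.69 in KO at MII, 31.8 ± 2.61 and 50.4 ± 4.16 at PN3, and 9.42 ± 3.66 and 13.6 ± 1.14 at E2C. Its RNA thus started level in the eggs and declined in both genotypes, with the KO above the WT libraries at PN3. Zp1 declined too, with 118 ± 3.60 and 131 ± 2.63 at MII and 20.5 ± 1.29 and 34.8 ± 6.01 at PN3. Unlike Kat8, its KO libraries were already above the WT libraries at MII.

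At the 2-cell stages, where Smarca4 RNA was higher in the KO libraries than at PN3, the PN3 genes could be followed only by sign. With E2C and with L2C fitted alone, limma called 0 of 9500 and 0 of 10770 genes (0% each), while 460 and 1874 had an unadjusted p under 0.05. Of the higher genes 47 of 57 measured at E2C (all genes above 0: 55.5%) and 37 of 51 at L2C (50.7%) had the same sign. Of the lower genes it was 36 of 49 (all genes below 0: 44.5%) and 20 of 42 (49.3%). The median within-group SD was 0.36 (WT) and 0.24 (KO) at E2C, against 0.13 in both groups at PN3.

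The difference between the PN3 and MII effects was tested directly as an interaction over the 13 libraries of both stages. It called 24 of 9994 genes (0.240%), 12 with a KO effect more positive at PN3 and 12 with one more negative; with FPKM as deposited the split was 21 and 6 and with TPM 20 and 13. The count of 24 became 5 and 11 without WT oocyte replicates 2 and 3, 3 without KO oocyte replicate 1 (the lone KO oocyte library is then assumed to vary like the other groups), 14, 10 and 14 without WT zygote replicates 1, 3 and 4, and 10 without KO zygote replicate 3. Dclk1, a microtubule-associated kinase, was 2.63, 4.66 and 3.03 in WT oocytes and 0.0185 and 0 in KO oocytes. At PN3 it was 1.82, 1.89, 2.08 and 2.21 in WT against 3.80, 3.11, 2.10 and 1.83 in KO, where the KO libraries were no longer near 0 (2.39 ± 0.27 (SE), adjusted p = 0.00150). Its difference at PN3 was 0.63 in replicates 1 and 2 and -0.09 in replicates 3 and 4. The 2-cell libraries of Dclk1 (on the scale of all 25 libraries) were uneven in KO, at 0.0167, 0 and 5.78 at E2C and 0, 6.82 and 6.25 at L2C, against 6.64 to 9.78 and 5.35 to 7.78 in WT. Anxa5, an annexin that binds phosphatidylserine, was 11.3, 10.7 and 11.5 and 2.20 and 3.06 at MII and 2.83, 3.25, 2.45 and 2.34 and 4.40, 5.16, 4.07 and 3.29 at PN3 (2.24 ± 0.19 (SE), adjusted p = 1.46e-04). Its WT values were lower at PN3 than at MII and its KO values were not. Plek was 4.68, 5.96 and 4.86 and 4.66 and 5.15 at MII, where the groups overlapped, and its KO values but not its WT values were higher at PN3 (1.24 ± 0.17 (SE), adjusted p = 0.00761). Cxcr3 had a like pattern (0.73, adjusted p = 0.0248).

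Further genes of the interaction were called in the egg and, on genotype alone, not at PN3. Exosc9, an exosome subunit (1.10, adjusted p = 0.0148), and Cobl, an actin nucleator (1.03, adjusted p = 0.0429), were lower in KO at MII (-0.80 and -1.51), and neither was called at PN3 (0.31 and -0.47). In the other direction Gas2l3 (-0.71, adjusted p = 0.00501), the clock gene Per1 (-0.80, adjusted p = 0.0442) and the pseudogene Gm5779 (-0.78, adjusted p = 0.0427) were higher in KO at MII and not called at PN3. With the split of the replicates as a term, the PN3 difference was called for Exosc9 (limma adjusted p = 0.0264), Cobl (0.0128), Gm5779 (0.00522) and Anxa5 (0.00928). That term called 925 of the 9666 genes tested at PN3. Cbfa2t3, a transcriptional corepressor, was called lower at PN3 (-0.50) and higher at MII (0.52), with an interaction term of -1.03 (adjusted p = 0.0404). The largest term belonged to the noncoding RNA Gm19757, at 0.0117, 0.0166 and 0.0161 in WT oocytes and 13.9 and 16.4 in KO oocytes. In zygotes it was 10.7, 10.0, 10.0 and 8.22 in WT against 14.2, 13.8, 5.51 and 6.12 in KO (-4.07 ± 0.38 (SE), adjusted p = 2.78e-04). The KO zygotes split by replicate pair, with replicates 1 and 2 above and 3 and 4 below all WT libraries. In the 2-cell embryos Gm19757 was 0, 0 and 7.34 in KO at E2C and 0, 11.8 and 10.2 at L2C, so the KO libraries at 0 were those where Dclk1 was at or near 0, against 4.00 to 15.4 and 2.86 to 4.96 in WT.

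By position, called genes lay on most chromosomes. RefSeq (GRCm38.p6) placed 9629 of the 9666 genes. Of all genes tested 1.21% were called, 0.631% higher and 0.579% lower. The X chromosome had 1 higher and 6 lower genes of 296 (2.36%), among them Gm8817, Taf9b, Usp11 and Cxcr3. Chromosome 16 had 0 of 307. Whether any chromosome departs from the share over all genes was not tested. Within 10 Mb of Smarca4 79 other genes were tested and 1, Dpy19l1, was called (-0.50), near the share over all genes. On chromosome 13 the neighbours Dip2c and Zmynd11, 15908 bases apart, moved in opposite directions: Dip2c at -0.88 and Zmynd11, a reader of methylated histone H3, at 0.69 (9.16, 7.30, 8.07 and 5.71 in WT against 14.7, 13.8, 11.9 and 10.8 in KO). Zmynd11 was called in only 1 of the 8 fits without 1 library. Other called neighbours were Prdm2 (-0.39) and Pdpn (-0.33), 54640 bases apart, and Ankrd13a (-0.33) and Pop5 (0.68), 429767 bases apart. All of these but Dip2c are named after their values were seen. Of 116 called genes placed in GENCODE vM21, 44 overlap a gene on the other strand, so reads of such pairs could be mixed if strand was not used. The share among all tested genes was not counted, so this count does not set the called genes apart.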

How the data were processed

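RNA from PN3 zygotes was read in 4 WT and 4 KO libraries. Per the labels' protocols, ribosomal RNA was depleted, stranded libraries were made and read in pairs of 150 bases. The authors deposited 1 FPKM value for each of 24412 gene symbols and library. Trim Galore 0.4.5, StringTie, HISAT2 and HTSeq stand in the submitters' processing notes, with GRCm38 and mm10 as builds and no role or order. Neither the maker of the FPKM values nor the use of strand is given in the sources used here. Low values showed no whole-read steps, so no counts could be recovered and the depth is unknown.

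From the deposited FPKM, libraries were rescaled by their median ratio to the gene-wise geometric means of the 8714 genes that reached an FPKM of 1 in all 8 libraries. The 9666 genes that reached 1 in 3 or more libraries were tested, as log2(scaled FPKM + 1), with limma 3.58.1 in R 4.3.3 (moderated variances with a trend on the mean and a robust prior, genotype as the only term, 6 residual degrees of freedom). The Benjamini-Hochberg adjustment ran over these genes, and an adjusted p under 0.05 was a call. PN3 was fitted alone, so the spread is that of this stage. The difference between the PN3 and MII effects was an interaction term over 13 libraries (9994 genes, rescaled over 8590). Levels across stages were rescaled over 6492 genes in 25 libraries. The PN3 fit was run on simulated data with independent normal noise for each gene. The simulated libraries had no split of the replicates, so that run does not cover it.

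The text names Smarca4 and Smarca2, the 15 largest called differences in each direction with no overlap between libraries, called members of the 31 gene lists, genes called in all 8 fits without 1 replicate, 15 watch genes, and the 5 largest interaction terms in each direction. The comparison, the lists and the watch genes were chosen with earlier results of these data known. Lists are described by counts and medians, with no test. Alternatives were the scaling, the pseudocount (0.1), the filter, the variance model, library weights, the libraries in the fit, a replicate block, leaving out each replicate and, added after seeing the data, a term for replicates 1 and 2 against 3 and 4. Positions and promoter windows are from RefSeq GRCm38.p6 and overlaps from GENCODE vM21, both on the build the notes name. Figures were drawn with matplotlib 3.10.9.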

Additional observations from a re-analysis of the deposited data

Results flagged for a closer look

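For 11 genes the KO effect at PN3 differed from that at MII by the interaction test, and the values here are the PN3 effect minus the MII effect (log2). It was more positive at PN3 for Dclk1 (2.39), Anxa5 (2.24), Plek (1.24), Exosc9 (1.10), Cobl (1.03) and Cxcr3 (0.73). It was more negative at PN3 for Gas2l3 (-0.71), Gm5779 (-0.78), Per1 (-0.80), Cbfa2t3 (-1.03) and Gm19757 (-4.07). Anxa5, Dclk1, Exosc9, Cobl, Gas2l3, Gm5779 and Per1 were called at MII and not at PN3 on genotype alone, and Gm19757 was not tested at MII alone. Plek and Cxcr3 were called at PN3 and not at MII, and Cbfa2t3 was called at both stages with opposite signs. With the split between replicates 1 and 2 and replicates 3 and 4 as a term, Anxa5 (limma adjusted p = 0.00928), Exosc9 (0.0264), Cobl (0.0128) and Gm5779 (0.00522) were called at PN3 too. They were among 925 of the 9666 genes called with that term.

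In WT, replicate 4 of Cxcr3 lay apart from the other replicates, at a scaled FPKM of 5.06 against 4.74 to 4.77. The KO libraries of Cxcr3 lie above it, from 7.45 to 8.93. It was the 1 such sample among 130 groups of 4 libraries checked (0.769%), and chance flags about 1 in 20 groups.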

How the results depend on the processing

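The count of 117 called PN3 genes was 104 with FPKM as deposited, 113 with TPM, 109 with a pseudocount of 0.1, 90 with an FPKM of at least 5, 120 without the robust prior and 98 without the variance trend. It became 43 with no filter (20024 genes tested), 343 with library weights, 10 with all 25 libraries in the fit and 542 with the MII and PN3 libraries in the fit, and the cause of these shifts was not tested. Leaving out 1 replicate gave 25 (without WT replicate 3) to 72 (without KO replicate 1). No called gene changed sign under any of these. KO and WT libraries did not overlap for any called gene, so leaving out 1 replicate could hardly change a sign. The robust prior and the variance trend do not enter the difference itself. Of the 117, 101 were still called with FPKM as deposited, 113 with TPM, 42 with no filter and 25 without WT replicate 3. The 24 interaction calls became 13 with no filter, 40 with an FPKM of at least 5, 194 with library weights and 0 with all 25 libraries in the fit (limma, 113 genes at an unadjusted p under 0.05), and 3 (without KO MII replicate 1) to 32 (without KO MII replicate 2) when 1 replicate was left out. The median over all members of the gene lists was -0.01, and -0.02 to -0.00 under the alternatives, leaving out 1 replicate included.

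Same-numbered KO and WT zygote libraries correlated in their deviations from the group means by 0.01, 0.41, 0.13 and 0.47, so the numbers were not taken as pairs, and not every library correlated best with its own number. With a replicate block the count was 751 (407 higher, 344 lower), and 115 of the 117 genes were called. Hist2h2aa2 (adjusted p = 0.0618) and Gm8817 (0.0603) were not, while Dux (0.00258), Gdf9 (9.36e-04), Zp3 (0.0215), Tet3 (0.0359), H3f3a (0.0289), Obox1 (0.0244), Anxa5 (0.0113), Exosc9 (0.0290), Cobl (0.0148) and Gm5779 (0.00557) were. These 10 were also called with the term that follows. With replicates 1 and 2 against 3 and 4 as a term, chosen after seeing the data, the count was 925 (499 higher, 426 lower), with all 117 genes among them. The depth is unknown, so what it limits could not be given.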

Other observations

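Called genes outside the naming rule, given here after their values were seen, include pairs of related function. The neuregulin genes Nrg1 (0.66, adjusted p = 0.0324) and Nrg3 (0.53, adjusted p = 0.0386), which encode ligands of the ErbB receptors, were both higher in KO zygotes. The netrin gene Ntn1 (0.59, adjusted p = 0.016) and Flt1 (0.50, adjusted p = 0.0454), a receptor of vascular endothelial growth factor, were higher too. Among mitotic genes, Ube2c, the ubiquitin-conjugating enzyme of the anaphase-promoting complex (-0.40, adjusted p = 0.032), and Gsg2, the histone kinase Haspin (-0.34, adjusted p = 0.0361), were lower, and Cenpm, a centromere protein (0.67, adjusted p = 0.0324), was higher. Most of these calls depended on single libraries: of the 8 fits without 1 library, Ntn1 was called in 5, Nrg1 in 3, Cenpm in 2, Nrg3, Flt1 and Ube2c in 1 and Gsg2 in 0. No test was made of these as groups.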
